A study of Mus musculus with 24 samples.

Results

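The nuclear genes of oxidative phosphorylation were taken from the count table by name: protein-coding genes whose symbol starts with Ndufa, Ndufb, Ndufc, Ndufs, Ndufv, Uqcr, Cox4 to Cox8 or Atp5, with Sdha, Sdhb, Sdhc, Sdhd and Cyc1, and without the Ndufaf assembly factors. With a floor of 10 counts summed over the 24 libraries, 85 such genes were found among 55421 rows. They comprise 36 genes of complex I, 4 of complex II, 9 of complex III, 19 of complex IV and 17 of complex V. Of these, 20 were listed as core subunits, 7 as tissue-specific isoforms and 58 as other subunits. This core list is a working label. It includes Uqcrc1, Uqcrc2, Cox4i1, Cox5a and Cox5b, which lie outside the catalytic core of their complexes. Atp5c1 and Atp5g3 were left among the other subunits. The rule itself uses names and the count floor only.

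The study asked how Nox2, the membrane subunit of the NADPH oxidase of phagocytes (gp91phox, gene Cybb), bears on the response of the brain to repeated systemic endotoxin. Libraries of 3′ tags were made from left hemispheres of 24 mice aged 3 months, all with the strain label C57BL/6J, in 4 groups of 6 animals. Wild type (WT) and Nox2KO mice received intraperitoneal injections of 100 µl on each of 4 days, either of PBS or of bacterial lipopolysaccharide (LPS) at 1 µg per g body weight a day. The labels do not describe the disrupted allele.

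Oxidative phosphorylation takes place at the inner mitochondrial membrane. Complexes I and II pass electrons from NADH and succinate to ubiquinone, complex III passes them to cytochrome c and complex IV to oxygen. The proton gradient built by complexes I, III and IV drives the ATP synthase, complex V. Some subunits are encoded by mitochondrial DNA, and the genes described here supply the others from the nucleus. Neurons depend heavily on this pathway, and activated microglia and macrophages are known to shift their energy supply towards glycolysis.

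Library totals ranged from 2340184 to 5256169 counts, and the 85 genes took 1.49 to 1.67% of them. Levels are CPM, counts as a share of the library's counts in genes that passed a filter on low counts, scaled with TMM factors. Replicates 1 and 2 of WT LPS stood apart from the others of their group, with Cybb at 15.7 and 15.7 CPM against 23.7 to 34 CPM, so counts of changed genes are also given without them. Cybb tags were more abundant in the libraries labelled Nox2KO (63.1 to 77.3 CPM) than in those labelled WT (0.853 to 34 CPM). A 3′ tag outside a disrupted part is no check of a genotype. Reads at the 3′ end can also be shared with near-identical copies: 21 of the 85 genes share at least 1 run of 50 bases in the last 300 bases of their transcript with another annotated gene. In Cox7c, Atp5l, Ndufs5 and Ndufs3 over 50% of these runs were shared, and the levels of these 4 genes are uncertain. Atp5o, which is called below, shared 29.1% of its runs with 1 other annotated gene. Another protein-coding entry of the symbol Atp5o had 0 counts. How shared reads were counted is not known, and this limits the values of Atp5o too.

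Promoter sequence was available from RefSeq (GRCm38.p6) for 67 of the 85 genes, matched by symbol, as windows of 250 bases before to 50 bases after the start. The windows were searched on both strands for 4 short motifs of factors known to drive nuclear respiratory genes. The core of nuclear respiratory factor 1, GCATGCGC, was found in 14.9% of the 67 promoters, 5.80% of promoters of all tested genes and 3.05% of all promoters of this length. For the ETS motif of GABPA, CCGGAAG, these shares were 23.9, 18.8 and 9.93%. For the short site of the oestrogen-related receptors, AAGGTCA, they were 11.9, 3.79 and 5.38%, and for the YY1 motif, AAGATGGC, 13.4, 5.07 and 3.19%. No match overlapped a match of another motif, and 33 of the 67 promoters held at least 1 of them.

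The 250 bases before the start are shown, as examples, for 4 genes that passed the test after LPS. The calls of Cox5a in wild type and of Uqcr11 in Nox2KO mice held under only 15 and 22 of the 35 alternatives described below. Cox7b had the smallest p in wild type, Cox5a was lower in both genotypes, and Ndufb2 and Uqcr11 were lower in Nox2KO mice. They lie at chrX:106015450-106015699 (Cox7b, plus strand), chr9:57520982-57521231 (Cox5a, plus strand), chr6:39592315-39592564 (Ndufb2, plus strand) and chr10:80406822-80407071 (Uqcr11, minus strand) of GRCm38. Each is written 5′ to 3′ on the strand of its gene, with motif letters in capitals.
Cox7b: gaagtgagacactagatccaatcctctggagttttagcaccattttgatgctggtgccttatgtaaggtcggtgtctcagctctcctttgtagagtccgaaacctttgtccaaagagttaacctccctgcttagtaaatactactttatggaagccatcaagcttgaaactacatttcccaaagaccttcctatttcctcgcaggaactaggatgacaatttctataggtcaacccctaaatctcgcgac
Cox5a: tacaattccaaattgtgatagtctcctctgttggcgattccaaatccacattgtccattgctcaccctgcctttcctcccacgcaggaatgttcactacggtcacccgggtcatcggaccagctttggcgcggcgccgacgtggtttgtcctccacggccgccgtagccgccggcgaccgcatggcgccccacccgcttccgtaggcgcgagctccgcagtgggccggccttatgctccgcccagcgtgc
Ndufb2: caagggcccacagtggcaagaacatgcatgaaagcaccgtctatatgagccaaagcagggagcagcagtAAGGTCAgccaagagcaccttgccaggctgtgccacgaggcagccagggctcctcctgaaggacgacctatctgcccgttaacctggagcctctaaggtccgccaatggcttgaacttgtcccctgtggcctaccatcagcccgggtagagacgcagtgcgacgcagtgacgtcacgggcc
Uqcr11: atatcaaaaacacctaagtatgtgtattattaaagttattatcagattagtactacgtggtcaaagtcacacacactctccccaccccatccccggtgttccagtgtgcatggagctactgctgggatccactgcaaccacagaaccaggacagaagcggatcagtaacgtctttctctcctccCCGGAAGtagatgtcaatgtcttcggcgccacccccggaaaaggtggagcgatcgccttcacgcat
The capitals mark the short site of the oestrogen-related receptors in Ndufb2, from base -181, and an ETS motif in Uqcr11, from base -66. In Uqcr11 a nuclear respiratory factor 1 core also starts at base -4 and runs across the start, beyond the stretch shown. In the windows of Cox7b and Cox5a none of these letters was found.

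Most of these genes were abundant in the hemisphere. Averaged over the 24 libraries, 60 of the 85 stood at 100 CPM or more and 9 under 10 CPM. Complex I supplied 34.1% of the summed level, complex V 27.7%, complex IV 22.7%, complex III 11.8% and complex II 3.69%. With tags from the 3′ end, gene length has little bearing on these levels. Cox6c, a subunit of complex IV, was the most abundant at 877 CPM, and Atp5g3, a gene for subunit c in the membrane ring of complex V, followed at 846 CPM. In WT PBS animals their ranges overlapped, 823 to 905 CPM and 812 to 920.3 CPM. The catalytic β subunit of complex V, Atp5b, stood at 711 CPM and its α subunit, Atp5a1, at 639 CPM.

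Within complex I the most abundant gene was Ndufb8, of the membrane arm, at 417 CPM. The core subunits that carry electrons from NADH to ubiquinone had lower levels. In WT PBS animals Ndufv1, which binds NADH, had 126 ± 8.13 CPM (SD, n = 6), Ndufs1, the largest core subunit, 135 ± 7.83 CPM, and Ndufs7, with the last iron-sulfur cluster, 128 ± 3.42 CPM. The ranges of these 3 genes overlapped. Sdha, the flavoprotein that oxidises succinate, had 270.2 ± 10.4 CPM in the same animals. The iron-sulfur subunit Sdhb had 161 ± 8.33 CPM, and the membrane anchors Sdhc and Sdhd had 142 ± 10.3 and 30.8 ± 3.98 CPM. In complex III the hinge protein Uqcrh had 498 ± 29.7 CPM, above cytochrome c1, Cyc1, at 166 ± 7.87 CPM and the Rieske iron-sulfur protein, Uqcrfs1, at 139 ± 14.3 CPM.

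Tissue-specific isoforms lay far below the general ones. In WT PBS animals Cox4i1 had 418 ± 17.5 CPM, against 1.44 ± 0.426 CPM for its paralogue Cox4i2. Cox6a1 had 529.9 ± 14.4 CPM, against 12.9 ± 1.65 CPM for Cox6a2, the heart and muscle isoform. The other heart and muscle isoforms, Cox7a1 and Cox8b, had 7.35 ± 1.34 and 1.16 ± 0.687 CPM, and the testis isoforms Cox6b2 and Cox7b2 had 5.12 ± 1.45 and 1.05 ± 0.321 CPM. Ndufa4l2, the hypoxia-inducible paralogue of the complex IV subunit Ndufa4, had 1.57 ± 0.754 CPM.

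**Figure D1:**
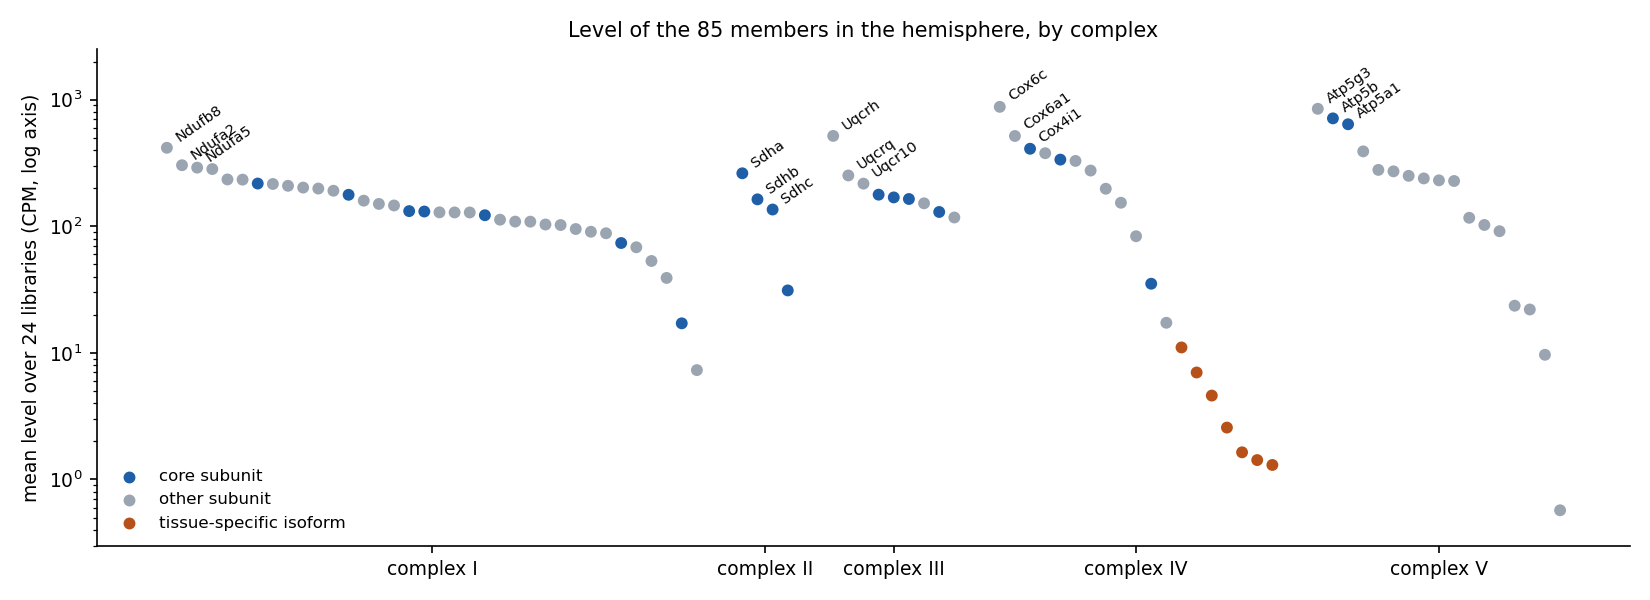
Mean level over 24 libraries of each of the 85 genes (CPM, log axis), ordered within its complex, with colours for the kind of subunit and the most abundant genes named. The 7 tissue-specific isoforms lie between 1.30 and 11 CPM, and Cox6c is highest at 877 CPM.

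Animals of a group differed little for most genes. The coefficient of variation within groups had a median of 6.31% over the 85 genes, with 5.36% in complex III and 11% in complex IV, which holds the rare isoforms. Sdhd varied by 26.4%: in WT LPS its lowest value, of replicate 5, was 6.15 CPM, against a median of 33.8 and a highest value of 42.5 CPM. Replicate 5 was the lowest library of WT LPS for 27 of the 81 tested genes (33.3%) and for 21.3% of all tested genes.

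Levels ran with library total. Within groups 64 of 81 genes (79%) had a positive correlation with library total, against 51.7% of all tested genes, and the median correlation was 0.278 against 0.0122. These are descriptions across genes measured in the same 24 libraries. With log2 library total as a covariate, added after the data were seen, 5 genes rose and 5 fell with LPS in wild type, and 0 and 5 in Nox2KO mice. The values without it follow.

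Tests ran over all 14380 genes that passed a filter on low counts, with edgeR's quasi-likelihood test. A call means a Benjamini-Hochberg adjusted p below 0.05. Of the 85 genes 81 passed the filter, and Cox4i2, Cox7b2, Cox8b and Atp5g2, at mean levels of 0.571 to 1.64 CPM, did not. Changes are log2 fold changes ± their standard error.

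In wild type mice most of the 81 genes stayed near their PBS level after LPS. The test called 5 higher and 6 lower and did not call 70. The share called was 13.6%, against 18.1% of all tested genes (10.9% higher and 7.12% lower). The median change was -0.04, against -0.0088 for all tested genes, and 57 of 81 (70.4%) lay below 0, against 51.8%. In 0 of 81 the LPS values lay wholly above or below the PBS values, against 5.88 and 2.06% of all tested genes. Without replicates 1 and 2 of WT LPS, 5 were higher and 6 lower, but not the same genes. Cox5a, Cox7a2l and Ndufa1 were then no longer called, with -0.12 (adjusted p = 0.0948), 0.15 (adjusted p = 0.144) and -0.21 (adjusted p = 0.0578). Ndufb8 and Ndufv2 were called instead, with 0.15 (adjusted p = 0.0178) and -0.16 (adjusted p = 0.0456), beside 1 other gene that was lower.

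Complex IV held 4 of the 6 genes that fell. Cox7b, subunit 7B, ran from 196 to 235 CPM (median 212) in PBS animals and from 151 to 199.7 CPM (median 179.7) in LPS animals. All 6 LPS libraries lay below the PBS mean, and the ranges overlapped at their ends. It fell by 0.26 ± 0.06 (edgeR adjusted p = 0.000464).

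Cox5b, the zinc-binding subunit 5B, ran from 36.8 to 44.8 CPM (median 40.2) after PBS and from 22.7 to 39.3 CPM (median 33.8) after LPS. It fell by 0.29 ± 0.09 (adjusted p = 0.022). The lowest value was that of replicate 5, and without this library the change was -0.20 (adjusted p = 0.0912). Cox5a, subunit 5A, ran from 325 to 367 CPM (median 358) after PBS and from 306 to 341 CPM (median 325) after LPS. The lowest PBS value, of replicate 6, lay within the LPS range, and the other PBS values were above it. The fall was 0.13 ± 0.05 (adjusted p = 0.0498), and leaving out 1 library at a time ended the call for 14 of the 24.

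Cox6a2, known from heart, skeletal muscle and parvalbumin interneurons, showed the largest fall of the 6. Its gene lies on chromosome 7, bases 128205435 to 128206387 (GRCm38). It ran from 11.1 to 15.1 CPM (median 12.7) after PBS and from 6.55 to 11.1 CPM (median 8.16) after LPS. It fell by 0.58 ± 0.17 (adjusted p = 0.0115), while the general isoform Cox6a1 stood at -0.06 ± 0.04 (adjusted p = 0.307). Of 11 muscle markers only Acta1 passed the filter on low counts, with a mean of 13.1 CPM after PBS and 10.5 CPM after LPS. Actc1, Ckm, Mb, Myh1, Myh2, Myh4, Myh6 and Tnnt3 averaged at most 0.546 CPM in any group. Myl1 and Tnni2, the remaining markers of the list, did not pass the filter either. All 11 together summed to 11.4 to 31.7 CPM in WT PBS and 12.5 to 16.6 CPM in WT LPS animals. Pvalb, the marker of parvalbumin interneurons, averaged 299.6 CPM after PBS and 300.4 CPM after LPS, with a change of 0.00 ± 0.06 (adjusted p = 0.989).

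Outside complex IV, Atp5b and Ndufa1 fell. Atp5b ran from 702 to 816 CPM (median 762) after PBS and from 627 to 711 CPM (median 692) after LPS. All 6 LPS libraries lay below the PBS mean, and the fall was 0.18 ± 0.04 (adjusted p = 0.00234). Its partner in the catalytic head, Atp5a1, stood at -0.09 ± 0.05 (adjusted p = 0.21). Ndufa1, a small membrane subunit of complex I, ran from 141 to 177 CPM (median 157) after PBS and from 95.9 to 156 CPM (median 142) after LPS. It fell by 0.22 ± 0.07 (adjusted p = 0.0266). Here too replicate 5 was lowest, and without it the change was -0.14 (adjusted p = 0.111).

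The 5 genes that rose lay in complexes I, III, IV and V. Ndufa4l2, on chromosome 10, bases 127514967 to 127517154 (GRCm38), ran from 0.211 to 2.28 CPM (median 1.74) after PBS and from 1.54 to 5.69 CPM (median 3.82) after LPS. It rose by 1.24 ± 0.37 (adjusted p = 0.0095), with 5 of 6 LPS libraries above the PBS mean, at 232 counts over all 24 libraries. This gene is also known from pericytes. Of 9 tested markers of pericytes and smooth muscle 7 were higher and 0 lower in the same comparison, with summed levels of 181 to 209 CPM after PBS and 302 to 325 CPM after LPS. Their part in the rise was not tested.

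The other rises were small. Cox7a2l has been linked to supercomplexes of complexes III and IV, and what its protein does in this strain was not measured. It ran from 69.3 to 81.4 CPM (median 76.7) after PBS and from 78.3 to 95.1 CPM (median 88.6) after LPS. The rise was 0.20 ± 0.07 (adjusted p = 0.025). Atp5o, the stalk protein that confers oligomycin sensitivity on complex V, ran from 240.2 to 295 CPM (median 255) after PBS and from 260.4 to 316 CPM (median 291) after LPS, a rise of 0.16 ± 0.05 (adjusted p = 0.025). Ndufa2, an accessory subunit of complex I, rose by 0.14 ± 0.05 (adjusted p = 0.0388) and Uqcrh by 0.13 ± 0.05 (adjusted p = 0.0401). In these 4 genes all 6 LPS libraries lay above the PBS mean, and the ranges overlapped. With every gene of at least 10 counts kept in the fit, 1 gene was higher, Ndufa4l2, and 9 were lower.

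Most genes listed as core kept values near those after PBS. Of these 20 genes 0 rose, 3 fell (Cox5a, Cox5b and Atp5b) and 17 were not called, with a median change of -0.08. Closest to the threshold were Ndufv2, an iron-sulfur subunit of complex I, at -0.14 ± 0.05 (adjusted p = 0.06), Uqcrfs1 at -0.16 ± 0.07 (adjusted p = 0.0762) and Sdhc at -0.14 ± 0.06 (adjusted p = 0.0947). Ndufv2 was called lower under 6 alternatives, not counting single libraries left out, among them DESeq2, with -0.14 (adjusted p = 0.0357), and Uqcrfs1 under 2. Among those further away, Ndufs1 stood at -0.10 ± 0.06, Sdha at -0.07 ± 0.04, Uqcrc1, a core protein of complex III, at 0.07 ± 0.06, Cyc1 at -0.02 ± 0.05 and Cox4i1 at -0.02 ± 0.04. Of the other isoforms, Cox7a1 stood at -0.04 ± 0.17 and Cox6b2 at -0.21 ± 0.25. For 67 of the 81 genes the 95% interval of the change lay within 1.25-fold in either direction. By complex, 1 rose and 1 fell of 36 in complex I, 0 and 0 of 4 in complex II, 1 and 0 of 9 in complex III, 2 and 4 of 16 in complex IV, and 1 and 1 of 16 in complex V. Leaving out replicate 5 of WT LPS gave 2 higher and 3 lower, and leaving out replicate 6 of WT PBS, the shallowest library, gave 13 lower. There were 10 lower without WT LPS replicate 3, and the number higher was 1 without WT PBS replicate 4, 2 without WT PBS replicate 3 or WT LPS replicate 4, 5 or 6 and 3 without WT PBS replicate 2 or WT LPS replicate 2.

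**Figure D2:**
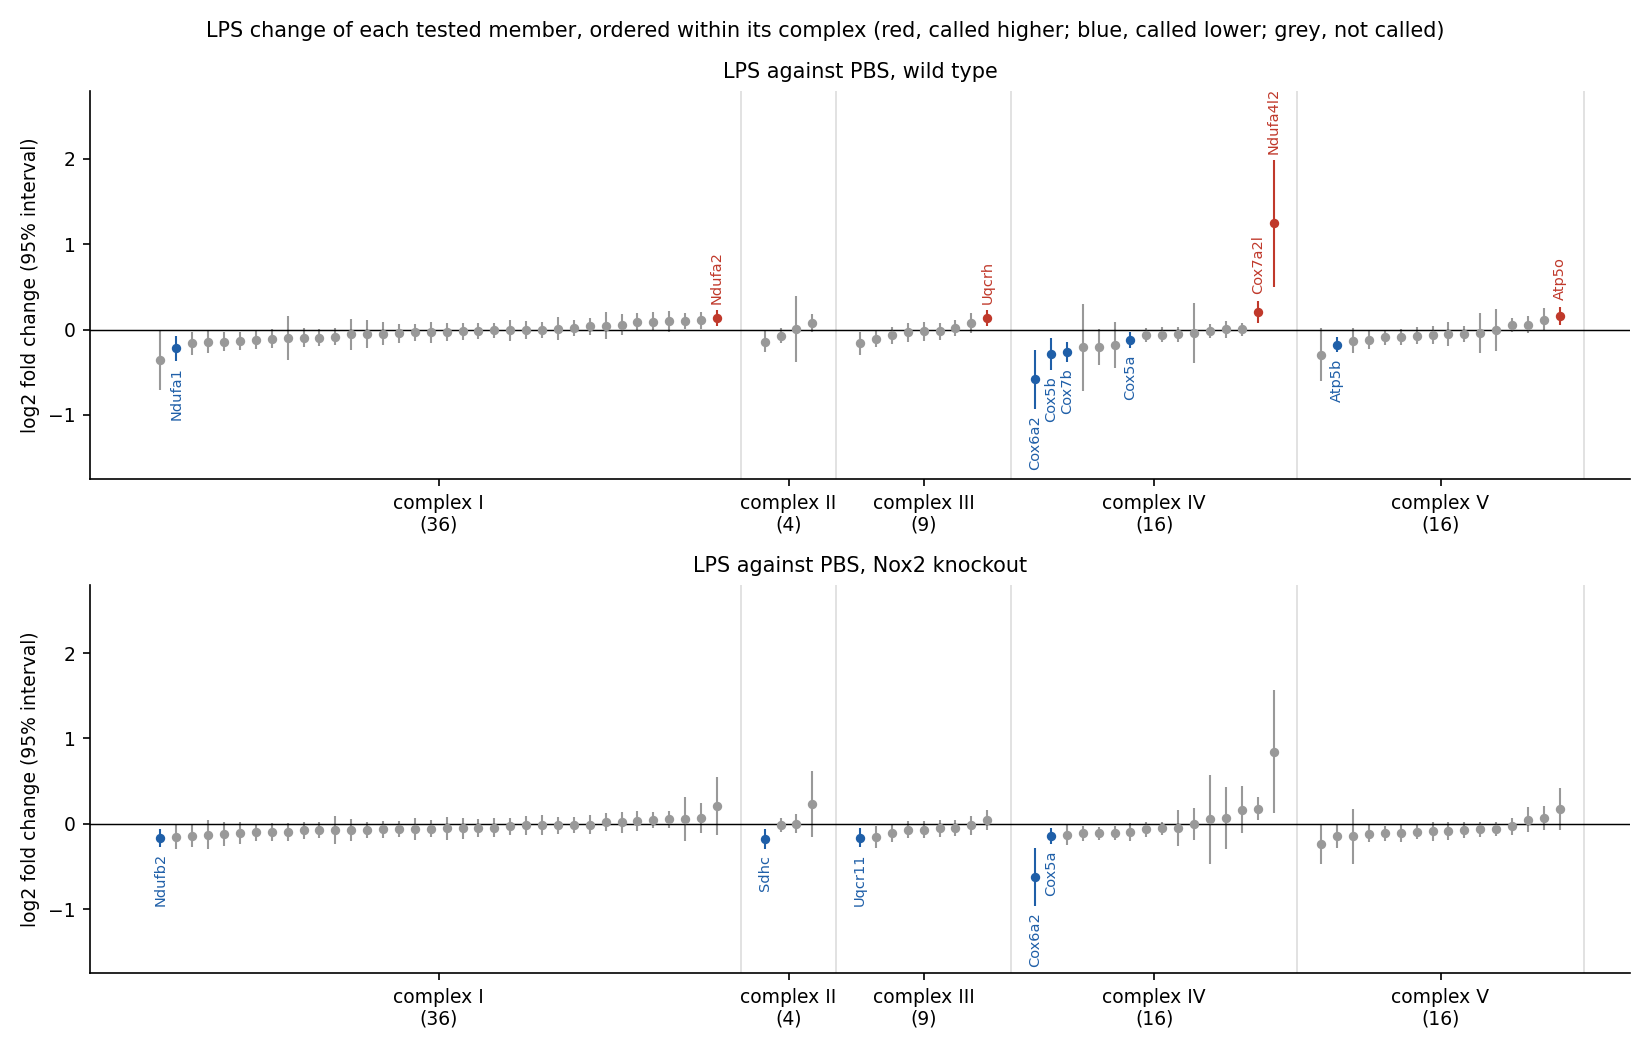
Log2 fold change after LPS with its 95% interval for each of the 81 tested genes, by complex, in wild type and in Nox2KO mice, with colours for genes called higher, called lower and not called. Most points lie close to 0 in both genotypes, and the changes of Ndufa4l2 (1.24) and Cox6a2 (-0.58) in wild type stand out.

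In Nox2KO mice LPS lowered 5 of the 81 genes and raised 0. This share, 6.17%, stood against 10.9% of all tested genes (7.05% higher and 3.82% lower), and 21 of the 81 (25.9%) had an unadjusted p under 0.05, against 21.7% of all tested genes. The median change was -0.06, against -0.0015 for all tested genes, and 62 of 81 (76.5%) lay below 0, against 50.4%. Of the 20 genes listed as core 0 rose and 2 fell, Sdhc and Cox5a. Among the others Ndufs1 stood at 0.03 ± 0.06, Sdha at -0.01 ± 0.04, Uqcrfs1 at -0.16 ± 0.07 and Cox4i1 at -0.07 ± 0.04. For 71 genes the 95% interval lay within 1.25-fold in either direction. Leaving out 1 library gave as few as 1 lower gene without Nox2KO PBS replicate 3, 2 without Nox2KO LPS replicate 1, 4, 5 or 6, and 3 without Nox2KO PBS replicate 1, 2 or 4 or Nox2KO LPS replicate 2.

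Cox6a2 again showed the largest fall. It ran from 11 to 17.4 CPM (median 12.8) after PBS and from 5.38 to 13.3 CPM (median 7.98) after LPS. All 6 LPS libraries lay below the PBS mean, and the fall was 0.62 ± 0.17 (edgeR adjusted p = 0.00911). Without LPS replicate 1 its change was -0.49 (adjusted p = 0.054). The general isoform Cox6a1 was not called in the main fit but was called lower with DESeq2, at -0.11 (adjusted p = 0.0110). Pvalb stood at -0.12 ± 0.06 (adjusted p = 0.174) and Acta1 averaged 11.2 CPM after PBS and 9.33 CPM after LPS. Cox5a ran from 328 to 382 CPM (median 347) after PBS and from 282 to 329 CPM (median 323) after LPS, with ranges that met only at their ends. It fell by 0.15 ± 0.05 (adjusted p = 0.0289). Cox6a2 and Cox5a were the 2 genes called lower in both genotypes, and 0 were called higher in both.

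Ndufb2, an accessory subunit of complex I, was the only one of the 81 genes whose LPS values lay wholly below its PBS values. Of all tested genes 1.72% did so in this comparison, and 4.24% lay wholly above. Ndufb2 ran from 127 to 152 CPM (median 132) after PBS and from 116 to 126 CPM (median 120.0) after LPS, and fell by 0.16 ± 0.05 (adjusted p = 0.0279). Uqcr11, a small subunit of complex III, ran from 111 to 135 CPM (median 119.5) after PBS and from 105 to 112 CPM (median 111) after LPS. Only LPS replicate 1 lay within the PBS range, and the other LPS animals lay below it, some narrowly. The fall was 0.16 ± 0.05 (adjusted p = 0.0434). Sdhc ran from 123 to 157 CPM (median 144) after PBS and from 119 to 138 CPM (median 125) after LPS, a fall of 0.18 ± 0.06 (adjusted p = 0.0458). In wild type these 3 genes stood at -0.08 ± 0.05, -0.02 ± 0.05 and -0.14 ± 0.06.

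The genes called in wild type alone had these values in Nox2KO mice. Ndufa4l2 stood at 0.84 ± 0.36 (adjusted p = 0.129), with all 6 LPS libraries above the PBS mean, and Cox7a2l at 0.18 ± 0.07 (adjusted p = 0.0906). Cox7b stood at -0.13 ± 0.06 (adjusted p = 0.163), Atp5b at -0.11 ± 0.04 (adjusted p = 0.106) and Ndufa1 at -0.15 ± 0.07 (adjusted p = 0.204). Atp5o stood at -0.08 ± 0.05, Ndufa2 at 0.05 ± 0.05 and Uqcrh at -0.05 ± 0.05 (adjusted p = 0.385, 0.659 and 0.648). Cox5b stood at 0.00 ± 0.09 (adjusted p = 0.992), with 27.5 to 37.3 CPM after PBS and 30.1 to 36.2 CPM after LPS. Across the 81 genes, 47 changes lay below 0 in both genotypes, 9 above 0 in both, and 25 differed in sign. Pearson's r between the changes was 0.698 over 81 genes and 0.164 over the 77 without the isoforms, as a description across genes.

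**Figure D3:**
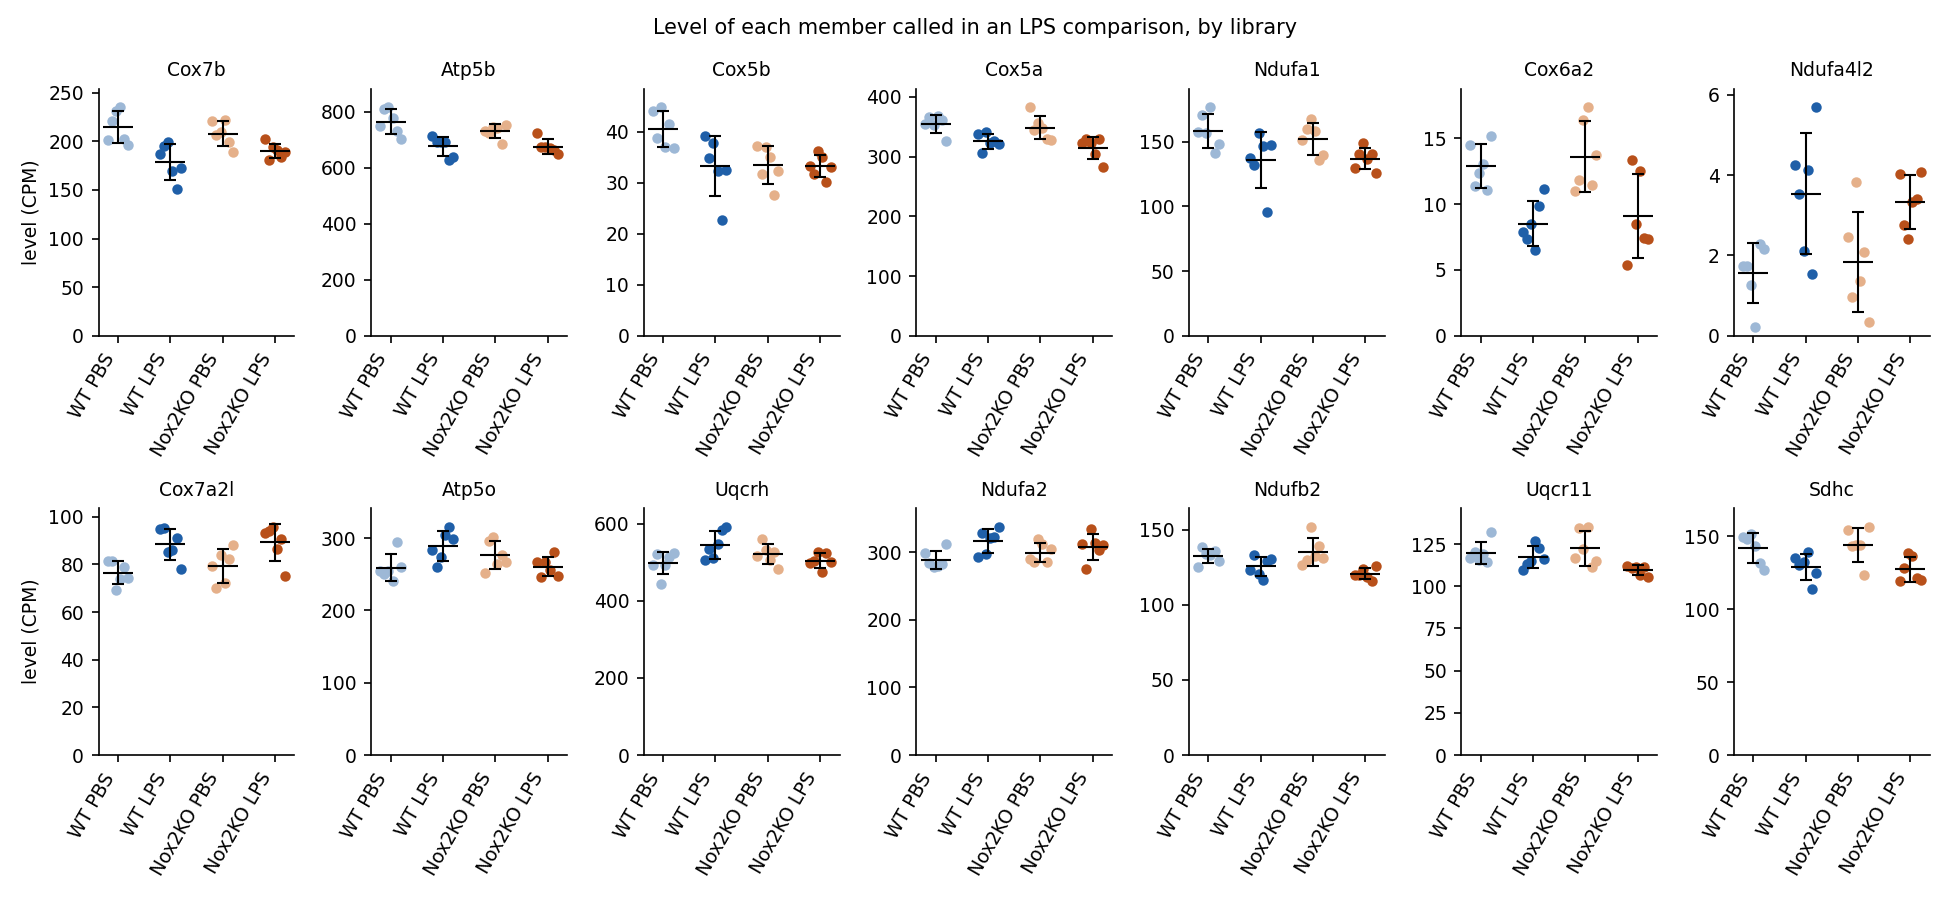
Level (CPM) in each of the 24 libraries of the 14 genes called after LPS in either genotype, with the mean and SD of 6 animals per group as bars. Cox6a2 lies lower after LPS in both genotypes, and replicate 5 of WT LPS is the low point of Cox5b (22.7 CPM) and Ndufa1 (95.9 CPM).

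Added up, the 85 genes had 16336 ± 397 CPM (SD, n = 6) in WT PBS and 15972 ± 345 CPM in WT LPS animals. In Nox2KO mice they had 16290.1 ± 403 CPM after PBS and 15551 ± 416 CPM after LPS. Complex IV had 3723 ± 64.4 and 3583 ± 82.2 CPM in wild type, and 3722 ± 105 and 3515 ± 86.8 CPM in Nox2KO mice. Complex V had 4585 ± 189 and 4407 ± 141 CPM in wild type, and 4527 ± 105 and 4281 ± 93.7 CPM in Nox2KO mice. The PBS and LPS ranges of these sums overlapped in both genotypes, and the sums carry no test. Within groups the sum of all 85 genes ran with library total. Pearson's r was 0.923 in WT PBS, 0.667 in WT LPS, 0.617 in Nox2KO PBS and 0.758 in Nox2KO LPS. The sums were not adjusted for this.

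**Figure D4:**
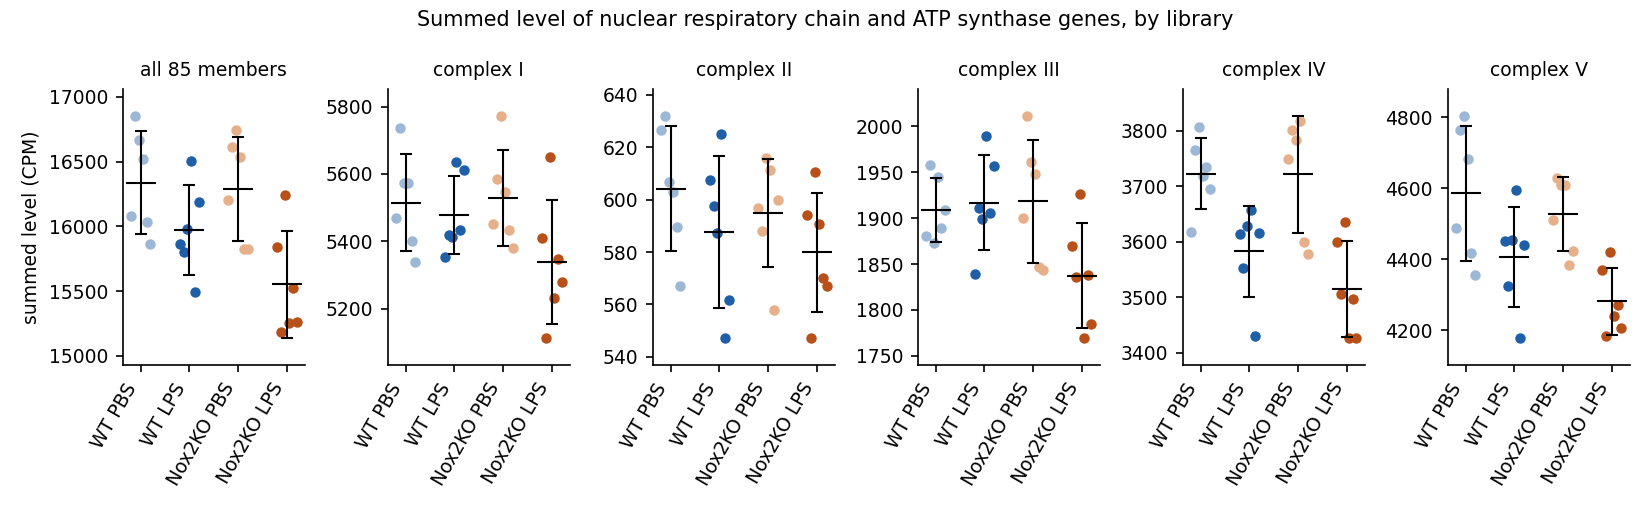
Summed level (CPM, axes not starting at 0) of all 85 genes and of each complex in every library, with the mean and SD of 6 animals per group as bars. The means of complexes IV and V are lower after LPS in both genotypes, with overlapping animals, as for complex IV in wild type (3723 and 3583 CPM).

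Cell type markers moved in the same comparisons. Of all tested genes 10.9% were higher and 7.12% lower with LPS in wild type, and 7.05 and 3.82% in Nox2KO mice. Of 12 neuronal markers 7 were lower and 0 higher after LPS in wild type, and 4 and 0 in Nox2KO mice. Their summed level was 7289 to 7416 CPM in WT PBS and 6268 to 6496 CPM in WT LPS animals, and 7122 to 7591 CPM in Nox2KO PBS and 6350.0 to 6875 CPM in Nox2KO LPS animals. Of 10 markers of microglia and macrophages 9 were higher in wild type and 9 in Nox2KO mice. Their sum was 284 to 347 and 804 to 1108 CPM in wild type, and 267 to 307 and 653 to 855 CPM in Nox2KO mice. Of 8 endothelial markers 8 and 7 were higher. Of 5 tested neutrophil markers 5 were higher in wild type and 5 in Nox2KO mice, and of 4 red blood cell markers 4 and 4 were lower. Of 8 cerebellar markers 3 were lower in wild type and 6 in Nox2KO mice. Their sum was 1092 to 1331 CPM in WT PBS, 1017 to 1238 CPM in WT LPS, 1054 to 1444 CPM in Nox2KO PBS and 985 to 1175 CPM in Nox2KO LPS animals. In bulk tissue, fewer cells of a type and less RNA per cell cannot be told apart. The part of these shifts in the values of the respiratory genes was not tested.

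Between genotypes the test called none of the 81 genes under either injection. After PBS 0 were called, against 0.132% of all tested genes (0.0417% higher and 0.0904% lower), and 3 of 81 (3.70%) had an unadjusted p under 0.05, against 8.73% of all tested genes. After LPS 0 were called, against 1.05% (0.264% higher and 0.786% lower), and 10 of 81 (12.3%) had an unadjusted p under 0.05, against 11.4% of all tested genes. DESeq2 called 0 in both comparisons too. In 0 of 81 genes did the genotypes' values lie wholly apart, against 0.229% above and 0.188% below after PBS, and 0.257 and 0.389% after LPS. The median difference, Nox2KO minus WT, was -0.02 after PBS and -0.04 after LPS. The 95% interval lay within 1.25-fold in either direction for 71 and 67 genes. Of 6 tested markers of olfactory bulb and nerve 4 were lower in Nox2KO mice after PBS and 3 after LPS, and 0 were higher. After PBS their sum was 57.9 to 149.8 CPM in WT and 40.0 to 66.6 CPM in Nox2KO animals. The part of this difference in the values of the respiratory genes was not tested.

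Cox5b had the smallest p after PBS. It ran from 36.8 to 44.8 CPM (median 40.2) in WT and from 27.5 to 37.3 CPM (median 33.7) in Nox2KO animals, and all 6 Nox2KO libraries lay below the WT mean. The difference was -0.28 ± 0.09, with a 95% interval of -0.46 to -0.09 (edgeR adjusted p = 0.315). After LPS Atp5o had the smallest p, with 260.4 to 316 CPM (median 291) in WT and 247 to 281 CPM (median 261) in Nox2KO animals. The difference was -0.15 ± 0.05 (adjusted p = 0.193). Without replicates 1 and 2 of WT LPS it was -0.19 (adjusted p = 0.0381), and 1 gene was then higher and 3 lower in Nox2KO mice.

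The interaction, the LPS change in Nox2KO mice minus that in wild type, called 0 of the 81 genes. Of all tested genes it called 0.00695% (0% higher), and 8 of the 81 (9.88%) had an unadjusted p under 0.05, against 9.78% of all tested genes. Atp5o had the smallest p: its LPS change was 0.16 ± 0.05 in wild type and -0.08 ± 0.05 in Nox2KO mice. The difference was -0.25 ± 0.07, with a 95% interval of -0.40 to -0.10 (edgeR adjusted p = 0.277). With DESeq2 it was -0.24 (adjusted p = 0.0498), and without replicates 1 and 2 of WT LPS -0.29 (adjusted p = 0.0327). Next came Ndufb8 at -0.18 ± 0.06 and Uqcrh at -0.18 ± 0.07 (adjusted p = 0.357 and 0.357). Without replicates 1 and 2 of WT LPS Ndufb8 stood at -0.23 (adjusted p = 0.0477). For 63 genes the 95% interval of the difference lay within 1.25-fold in either direction. It was wide for the rare isoforms, at -1.44 to 0.63 for Ndufa4l2 and -0.53 to 0.45 for Cox6a2.

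**Figure D5:**
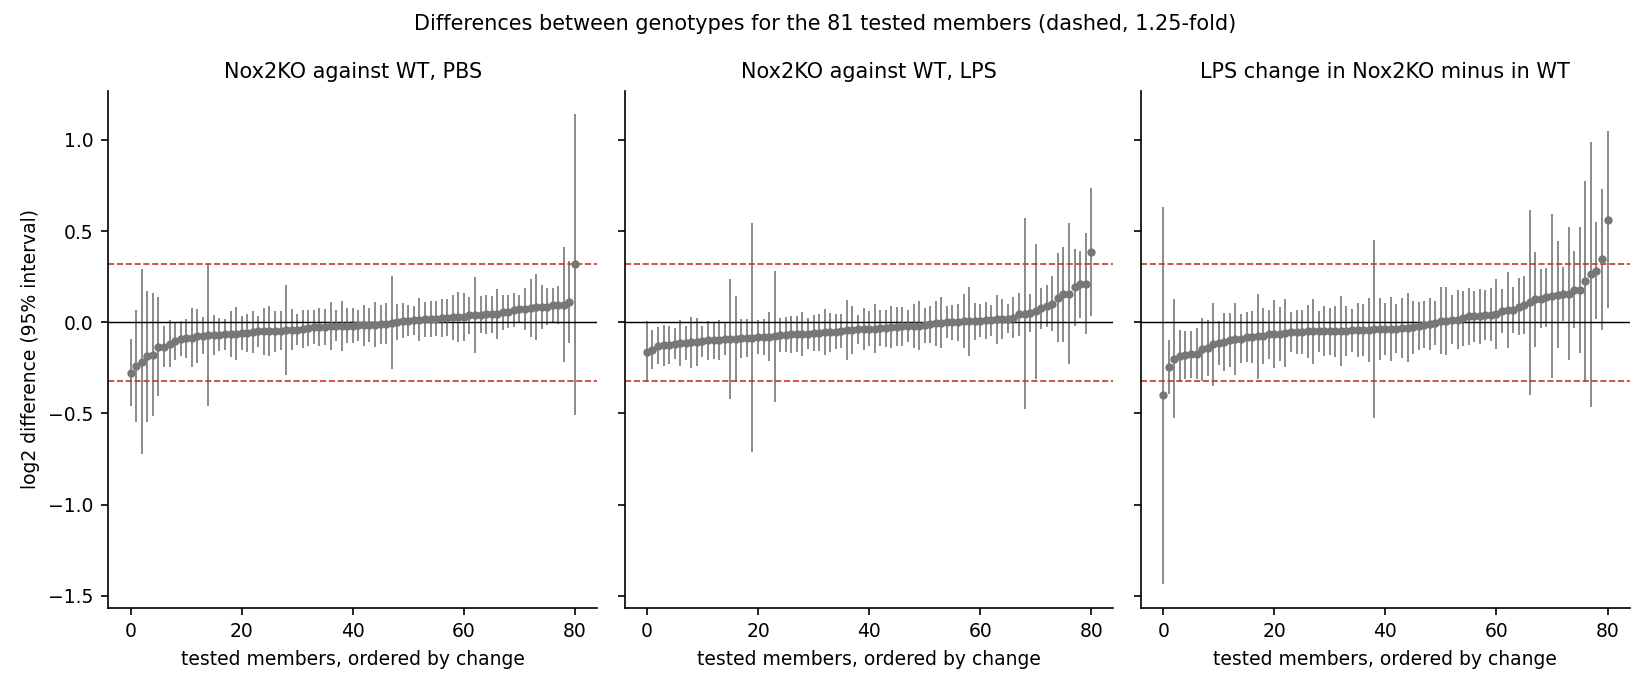
Log2 difference with its 95% interval for each of the 81 tested genes, ordered by size, for Nox2KO against WT after PBS, the same after LPS, and the interaction; dashed lines mark 1.25-fold. Most points lie between the dashed lines, 0 of 81 were called in each panel, and the interval of Ndufa4l2 in the interaction runs from -1.44 to 0.63.

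The lists below stand beside shares of all tested genes called with LPS. In wild type these were 10.9% higher and 7.12% lower, and in Nox2KO mice 7.05 and 3.82%. The medians of all tested genes were -0.0088 and -0.0015. Between genotypes after LPS the shares were 0.264% higher and 0.786% lower. Few of the factors that assemble the complexes were called. Of 48 tested assembly factors 0 rose and 2 fell with LPS in wild type, with a median of -0.0063. Sdhaf2, which helps insert the flavin into Sdha, fell by 0.39 ± 0.10 (edgeR adjusted p = 0.00498) and Ndufaf2, a complex I factor, by 0.34 ± 0.10 (adjusted p = 0.015). In Nox2KO mice 1 was higher and 2 were lower. Coa7, a complex IV factor, rose by 0.35 ± 0.10, and Ndufaf4, of complex I, and Fmc1, of complex V, fell by 0.28 ± 0.07 and 0.20 ± 0.06.

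Of the 13 subunits of the mitochondrial genome, 8 were tested. In wild type the complex I subunits mt-Nd2, mt-Nd1 and mt-Nd3 fell by 0.34 ± 0.06, 0.35 ± 0.08 and 0.77 ± 0.27, and mt-Nd6 rose by 0.24 ± 0.07 (adjusted p from 6.98e-05 to 0.0346). The summed level of all 13 ran from 26041 to 31506 CPM in WT PBS and from 20824 to 29308 CPM in WT LPS animals. Replicates 1 and 2 of WT LPS had 29308 and 28592 CPM, within the PBS range. The alternatives were not run for this list. In Nox2KO mice 0 were higher and 0 lower, and the interaction called 0 higher and 0 lower. Of 20 genes of electron carriers and coenzyme Q synthesis, 2 rose and 2 fell in wild type, and 0 and 2 in Nox2KO mice. Cycs, cytochrome c, fell by 0.36 ± 0.10 in wild type (adjusted p = 0.00786) and by 0.30 ± 0.10 in Nox2KO mice (adjusted p = 0.0477). Gpd2, the glycerol phosphate dehydrogenase that feeds ubiquinone, fell by 0.15 ± 0.05 and 0.15 ± 0.05. Etfb, of the electron transfer flavoprotein, and Coq8b, of coenzyme Q synthesis, rose in wild type by 0.30 ± 0.08 and 0.35 ± 0.12.

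Among 22 tested genes of glycolysis and its transporters, 7 were higher and 1 lower in wild type, and 4 and 1 in Nox2KO mice. The medians of the list were -0.020 and 0.0092. Slc2a1, the glucose transporter GLUT1, rose by 0.89 ± 0.06 in wild type and 0.87 ± 0.07 in Nox2KO mice. Hk2, an inducible hexokinase, rose by 1.13 ± 0.15 and 1.01 ± 0.16, and Slc16a1, a lactate transporter, by 1.01 ± 0.13 and 0.45 ± 0.13. After LPS Slc2a1 was lower in Nox2KO than in WT mice by 0.30 ± 0.06 (adjusted p = 0.00504) and Slc16a1 by 0.52 ± 0.12 (adjusted p = 0.018). Both transporters are known from endothelium. Of 8 endothelial markers 3 were lower in that comparison, with sums of 519 to 619 CPM in WT LPS and 467 to 514 CPM in Nox2KO LPS animals, and their part was not tested.

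Of 18 genes of the tricarboxylic acid cycle 1 was higher and 3 lower in wild type, and 1 and 2 in Nox2KO mice. Idh2, the NADP-dependent isocitrate dehydrogenase of mitochondria, rose by 0.55 ± 0.09 and 0.60 ± 0.09, and Idh3b, of the NAD-dependent enzyme, fell by 0.24 ± 0.06 and 0.17 ± 0.06. Among 22 regulators of respiratory gene expression 0 rose and 2 fell in wild type: Esrra, an oestrogen-related receptor, by 0.22 ± 0.08 and Sirt3, a mitochondrial deacetylase, by 0.23 ± 0.08 (adjusted p = 0.0448 and 0.0465). In Nox2KO mice 0 rose and 1 fell, Tfam, which packages and transcribes mitochondrial DNA, by 0.32 ± 0.09 (adjusted p = 0.0198). Of 22 tested carrier, import and cristae genes 2 rose and 0 fell in wild type, Phb2 by 0.18 ± 0.06 and Slc25a11 by 0.18 ± 0.06. In Nox2KO mice 0 rose and 1 fell, the chaperone Hspd1 by 0.30 ± 0.08. Of 10 tested accessory proteins 1 rose and 1 fell in each genotype. Ucp2, an inner membrane carrier that is abundant in microglia and macrophages, rose by 1.33 ± 0.13 in wild type and 0.81 ± 0.14 in Nox2KO mice, and was lower in Nox2KO mice after LPS by 0.51 ± 0.12 (adjusted p = 0.021). Markers of microglia and macrophages were 3 of 10 lower in that comparison, and their part was not tested.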

How the data were processed

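Per the labels' protocols the authors made QuantSeq 3′ libraries from 100 ng RNA each. They deposited raw counts per gene for 55421 identifiers. The submitters' processing notes name bcl2fastq, STAR (2.7.3a), featureCounts from Subread (2.0.0), R (3.6.1), DESeq2 (1.26.0) and build mm10. The annotation, strand setting and treatment of multiply mapped reads were not given in the sources used here. Gene types came from GENCODE M21, which holds 55154 of the identifiers. The other 267 stayed in library totals.

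All 24 libraries entered 1 fit in edgeR 4.0.16 (R 4.3.3) with group means, TMM, filterByExpr (minimum count 10), the quasi-likelihood test and 20 residual degrees of freedom, adjusted over 14380 genes in each of 5 comparisons. Levels are CPM with TMM-scaled library sizes, which were summed over the 14380 tested genes. The fit was run on simulated counts with the same dispersion for every gene, and changed genes were drawn only from well-counted ones. Such counts check the code and not the calls made here. Alternatives were DESeq2 1.42.0, limma 3.58.1, other scalings and filters, a depth covariate, a replicate block and leaving out libraries. The name rule matched 100 symbols, of which 13 are not protein-coding and 2 had under 10 counts. Named genes are those listed as core, isoforms, called genes, the 3 most abundant of each complex, and at most 4 called genes of each other list. The members and lists were chosen with earlier results of these data known. Same-numbered animals were not taken as pairs, since the labels give no reason to. In any comparison 0 of 6 pairs deviated together with a correlation above 0.1. The median correlation of same-numbered animals still lay above that of other pairs in every comparison of groups. Between genotypes after LPS it was 0.0440 against 0.0036, and 4 of 6 libraries correlated best with their own number. A structure shared by number is therefore not excluded.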

Additional observations from a re-analysis of the deposited data

Results flagged for a closer look

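Each named gene and each summed level was checked in every group of 6 animals for 1 animal far from the others, by its gap to the nearest other value over the range of the group. Of 192 groups 8 stood out (4.17%), and chance alone gives about 1 in 20. In WT PBS these were Atp5o in replicate 5, at 295 CPM, and in replicate 6 Cox5a at 325 CPM, Cox7b2 at 0.433 CPM and Uqcr11 at 132 CPM. In WT LPS they were Ndufv2 in replicate 5, at 145 CPM, and Sdha in replicate 4, at 274 CPM. In Nox2KO mice they were Uqcrc2 in PBS replicate 5, at 158 CPM, and Atp5b in LPS replicate 1, at 725 CPM. Atp5o, Uqcr11, Sdha and Atp5b were the highest of their group and the others the lowest.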

How the results depend on the processing

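The calls of Atp5b, Cox7b and Cox6a2 in wild type held under all 35 alternatives run, and that of Ndufa4l2 under the 34 that tested it, since a filter at a mean of 5 CPM drops this gene. That of Cox6a2 in Nox2KO mice held under 34 of 35. The other calls held under 15 (Cox5a in wild type) to 32 (Cox5b) of 35. Of these alternatives 24 leave out 1 library each. Among them are libraries of the other genotype, which do not enter the group means compared. Genes gained calls too: Ndufv2 in wild type under 6 alternatives and Uqcrfs1 under 2, not counting single libraries left out. In Nox2KO mice Cox6a1 was called lower after LPS with DESeq2, at -0.11 (adjusted p = 0.0110). It was also called without replicates 1 and 2 of WT LPS, at -0.11 (adjusted p = 0.0495). Atp5b was called lower in Nox2KO mice when only the groups compared were fitted, at -0.11 (adjusted p = 0.0468). No named value reversed, and medians and sums moved by less than their spread.

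In wild type 5 genes were higher, against 3 without Gm42418, mitochondrially encoded and globin genes, 1 without a filter beyond 10 counts, and 2 when only the groups compared were fitted. With the replicate number as a block 10 were lower in wild type, against 6. The numbers were not taken as pairs. In Nox2KO mice 3 were lower, against 5, both with scaling by library size only and with a mean of at least 5 CPM. Without replicates 1 and 2 of WT LPS, 1 gene was higher and 3 lower in Nox2KO mice after LPS, and 2 were lower by the interaction, against 0. DESeq2 called 1 lower by the interaction. Leaving out each library in turn gave 1 to 5 higher and 3 to 13 lower in wild type, 0 to 1 higher and 1 to 6 lower in Nox2KO mice, and 0 to 0 between genotypes and by the interaction. The cause was not tested. Depth limits the rare isoforms, such as Ndufa4l2 with 232 counts over 24 libraries.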
